A study of Mus musculus with 6 samples.

Results

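The genes described here are 52 genes that carry a cell from G1 into S phase and copy its DNA. They were taken from a list of symbols, from the G1 cyclins and E2F factors through origin licensing, the replicative helicase, the polymerases and the sliding clamp to chromatin assembly. The list was chosen with earlier results of these data known. On the array, 50 of the 52 were found among 22180 genes that have a probe set with a single gene symbol, and the probe set with the highest mean over all 6 arrays stood for each gene. Ccne2 and Rfc4 lie on probe sets that carry a second gene's symbol as well and were not analysed here.

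Expression was measured on Affymetrix Mouse Gene 2.0 ST arrays in splenic CD4+ T cells of wild-type female C57BL/6 mice aged about 8 weeks. All cells were first stimulated for 24 h with 10 µg/mL each of antibodies to CD3 and CD28. They then spent 24 h with 100 µM icilin, a synthetic cooling compound that opens TRPM8 and TRPA1 channels (3 arrays), or with the vehicle DMSO (3 arrays). These are thus cells in the second day of activation in culture, and no unstimulated cells were among the samples. Both groups came from the same 3 mice. The labels do not say which arrays share a mouse, so the main fit was unpaired. Values are log2 levels made by the authors with the RMA method, and each difference is icilin minus vehicle on that log2 scale. With bulk RNA, fewer cells in a phase and less RNA per cell cannot be told apart.

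A resting T cell enters the cycle when D-type cyclins with CDK4 and CDK6, and then cyclin E with CDK2, phosphorylate the retinoblastoma family of pocket proteins. This frees E2F transcription factors, which switch on most genes of DNA replication. Origins are licensed in G1, when ORC, CDC6 and CDT1 load the MCM helicase, and are fired in S phase by CDC7-DBF4 and CDK2, which bring CDC45 and GINS to the helicase. Resting CD4+ T cells hold little of this machinery and build it up after stimulation, before they divide.

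At the promoters, a motif for E2F was more frequent in the list than in the bulk of the genes tested. The search used 4 spellings on both strands (TTTCCCGC, TTTCGCGC, TTTGCCGC and TTTGGCGC; a spelling and its complement can overlap at 1 place) in RefSeq windows of 300 bases, from 250 before to 50 after an annotated start, build GRCm38.p6. The RefSeq table was matched for 41 of the 52 genes, all but Ccnd1, Ccnd2, Ccne2, Rb1, Gmnn, Mcm4, Gins1, Gins2, Gins4, Pole and Rfc2, and 19 of these (46.3%) had the motif in at least 1 window, against 3.16% of 16950 other genes tested on the array. Counted by window the shares were 35.8% of 53 and 2.77% of 20559. The windows of these genes were also richer in G and C, with a median of 63.0% against 56.7% in the other tested genes. Among the other tested genes whose windows were at least as rich as the lower quartile of the replication windows, 4.58% had the motif. The motif was not particular to the list. It was found in 30.3% of 33 replication genes outside the list and in 28.6% of 14 other G1 to S control genes. Of 17 mitosis genes 0 had it, and of 6 CDK inhibitor genes 1 had it. A match is a string of letters and does not show that a factor binds there. The full windows below belong to Rbl1 and Cdc6, which passed the test of expression, and to Dbf4, next to them in p-value and without the motif. The shorter windows hold the motif of the other genes with a limma unadjusted p under 0.05 and a motif. Capitals mark the motif or its complement, and each sequence runs 5′ to 3′ on the gene's strand.
Rbl1, chr2:157204485-157204784, minus strand: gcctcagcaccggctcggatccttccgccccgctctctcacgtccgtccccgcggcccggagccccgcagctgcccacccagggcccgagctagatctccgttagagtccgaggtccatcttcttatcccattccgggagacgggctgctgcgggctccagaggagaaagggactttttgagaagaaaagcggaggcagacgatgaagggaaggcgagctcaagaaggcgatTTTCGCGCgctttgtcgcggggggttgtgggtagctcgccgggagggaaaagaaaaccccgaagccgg
Cdc6, chr11:98907901-98908200, plus strand: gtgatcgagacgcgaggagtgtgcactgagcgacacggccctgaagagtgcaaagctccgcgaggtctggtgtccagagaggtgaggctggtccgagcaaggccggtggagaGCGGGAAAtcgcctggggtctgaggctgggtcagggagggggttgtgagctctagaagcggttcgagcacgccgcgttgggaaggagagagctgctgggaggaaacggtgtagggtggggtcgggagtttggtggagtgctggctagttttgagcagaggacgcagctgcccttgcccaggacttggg
Dbf4, chr5:8422667-8422966, minus strand: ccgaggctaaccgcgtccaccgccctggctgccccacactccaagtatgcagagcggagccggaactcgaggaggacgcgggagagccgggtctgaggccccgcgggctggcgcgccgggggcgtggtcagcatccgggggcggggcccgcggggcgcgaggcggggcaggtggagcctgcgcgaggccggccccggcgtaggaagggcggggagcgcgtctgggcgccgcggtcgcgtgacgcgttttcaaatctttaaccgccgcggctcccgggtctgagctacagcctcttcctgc
Orc1, chr4:108579417-108579444, plus strand: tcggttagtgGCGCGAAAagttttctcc
E2f3, chr13:29986057-29986084, minus strand: tgaaaagccgGCGGGAAAtctgagtttc
Pola1, chrX:93632276-93632303, minus strand: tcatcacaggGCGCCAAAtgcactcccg

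Genes with and without the motif had close median differences in expression. The 19 measured genes with it had a median log2 fold change of 0.09 (range -0.07 to 0.34, 17 above 0). The 21 measured genes with a window but no motif had a median of 0.08 (range -0.16 to 0.25, 17 above 0).

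Replication genes stayed close to their vehicle level in icilin-treated cells. None of the 50 reached the study's limits of at least 1.5-fold at an adjusted p under 0.1, where limma called 1.40% of all genes (0.370% higher and 1.03% lower), and the SAM method called 0 of the 50 at the same limits, where it called 1.49% of all genes. At an adjusted p under 0.1 without the fold limit, 2 of 50 rose, Rbl1 and Cdc6, against 2.27% of all genes, and 0 fell, against 3.00%. SAM at a false discovery rate under 0.1 without the fold limit called 0 of the 50, where it called 1021 of the 22180 genes. Limma gave an unadjusted p under 0.05 to 11, of which 10 were higher and 1, Ccnd3, was lower, against 9.09% and 8.05% of all genes. Since 49 of the 50 were brighter than the median gene, genes of that brighter part of the array are the nearer comparison, and there 13.7% were higher and 11.2% lower. Fitted on the brighter genes alone, 9 of 49 rose and 1 fell at an adjusted p under 0.1, against 12.8% and 10.4% of them. With an intensity trend and robust variances 9 of 50 rose and 1 fell, against 6.49% and 5.32% of all genes. These last shares include the dim genes, and shares over the brighter genes were not computed for that fit. The data bound each change tightly: the 95% interval of the log2 fold change lay between -0.32 and 0.53 for every one of the 50, inside 1.5-fold (0.58) in both directions. That held for 89.2% of all genes and 91.9% of the brighter ones and is no mark of the list.

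**Figure D1:**
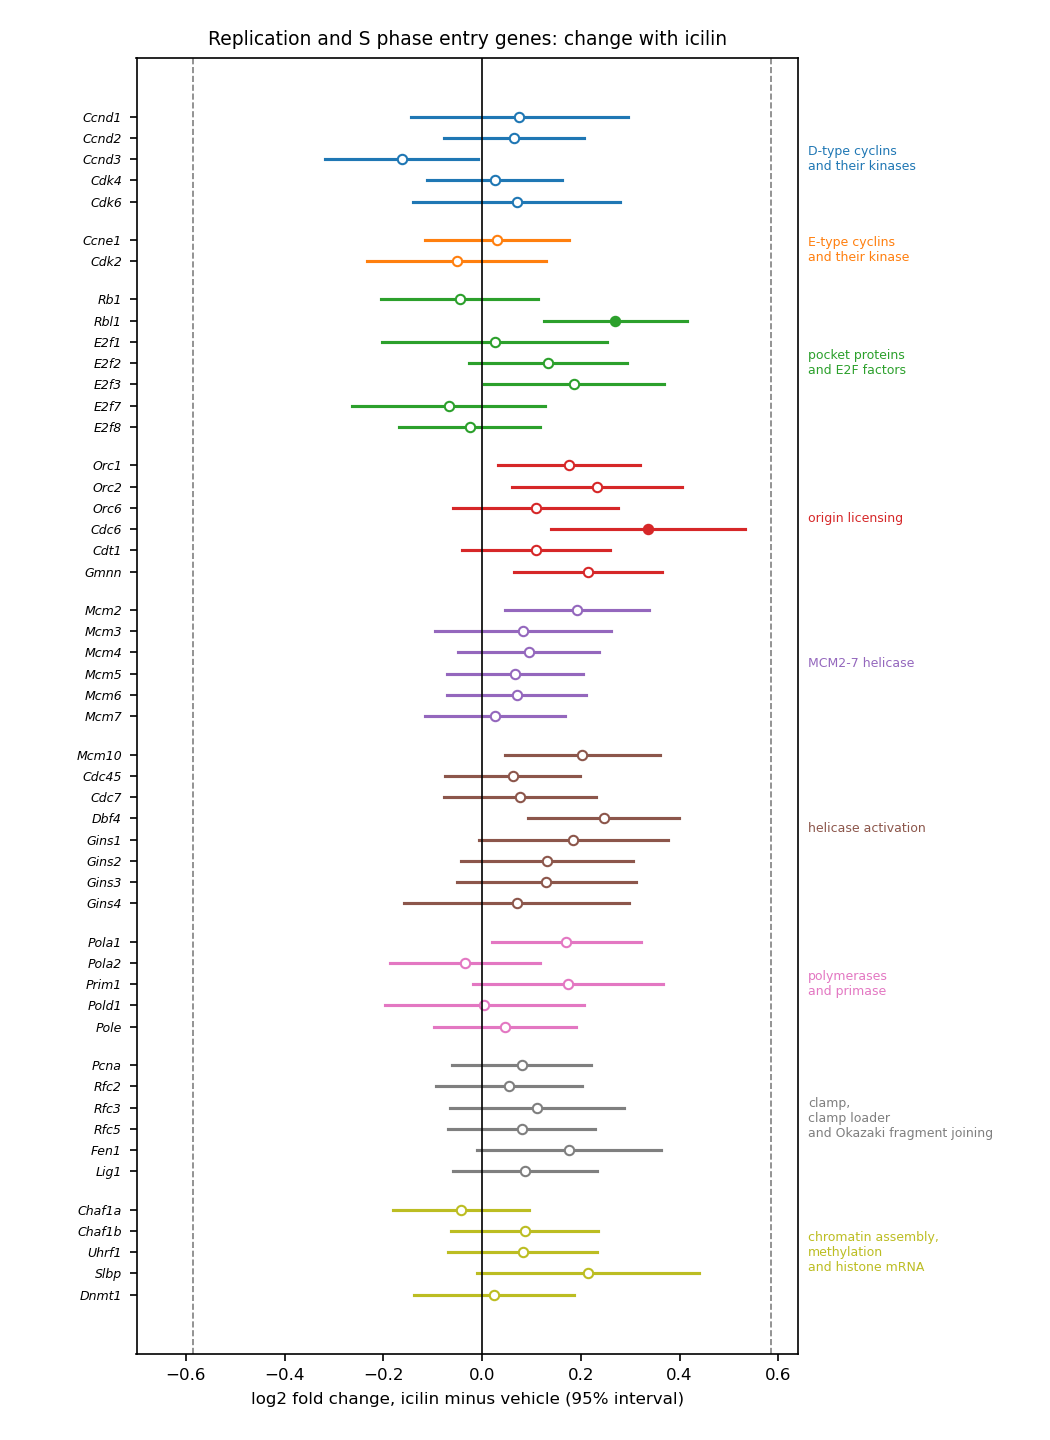
Log2 fold change, icilin minus vehicle, of the 50 measured genes with 95% intervals from limma, grouped and coloured by role. Filled points passed an adjusted p under 0.1 (Rbl1 and Cdc6), and the dashed lines mark 1.5-fold. No interval reaches a dashed line, and most points lie to the right of 0.

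Within those bounds the differences leaned one way. Of the 50 genes, 43 (86%) had a log2 fold change above 0, against 53.0% of all genes and 55.4% of the brighter ones. The median was 0.08, beside 0.01 over all genes and 0.02 over the brighter genes. In 25 genes all 3 icilin arrays lay above all 3 vehicle arrays, against 13.6% of all genes and 21.6% of the brighter ones. In 2, Ccnd3 and Chaf1a, they lay below, against 10.5% and 15.1%. The mean deviation of the 50 genes from their own averages was 0.05, 0.04 and 0.05 in the icilin arrays and -0.04, -0.05 and -0.06 in the vehicle arrays. The arrays of a group thus lay close together, with the groups apart. These counts describe the list and test nothing. Its genes cannot be taken as independent, since how they vary together was not tested. They were also chosen with earlier results of these data known. With each array centred on its median, a scaling that moved the median of all genes to 0.04, the median of the 50 was 0.11.

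**Figure D2:**
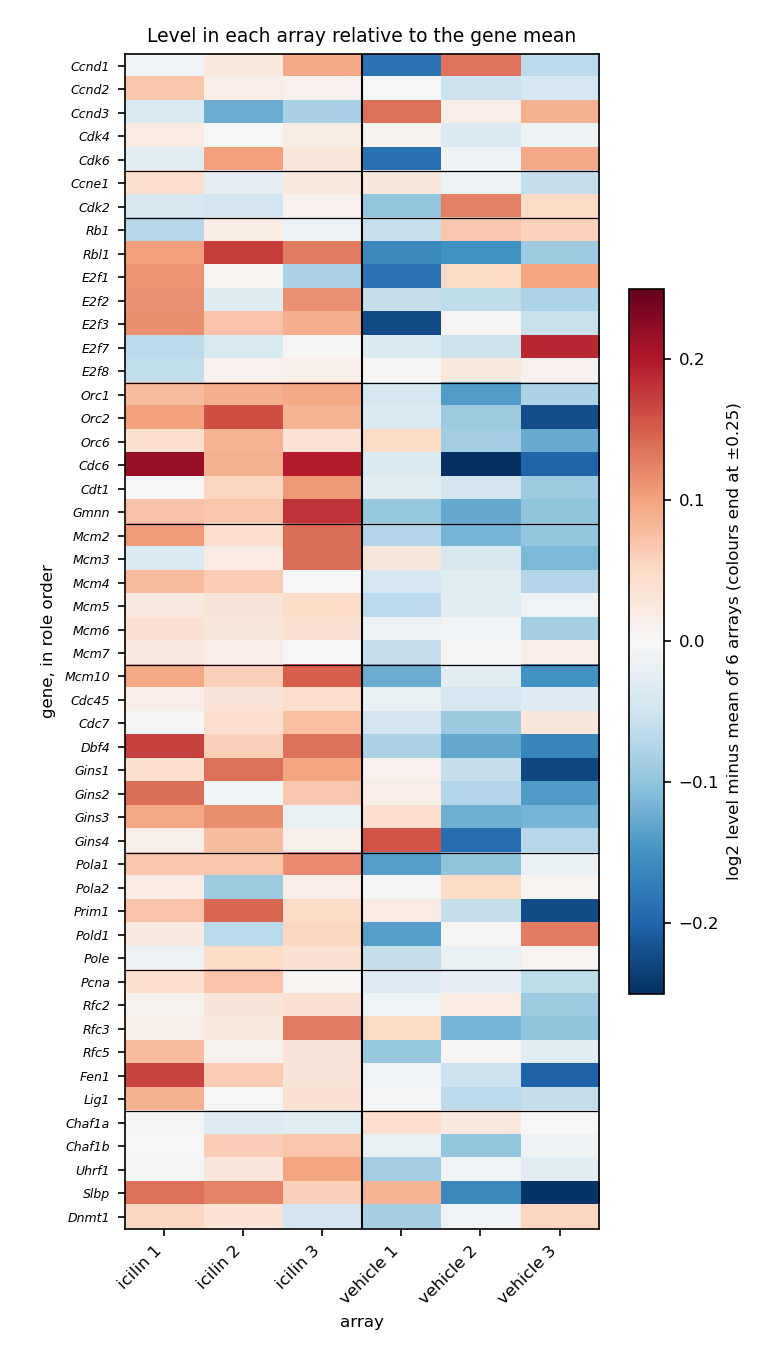
Log2 level of each of the 50 genes in each array minus the gene's mean over the 6 arrays, icilin arrays left and vehicle arrays right, with colours that end at 0.25 in either direction. Red in the icilin columns prevails in the blocks of origin licensing, MCM helicase, helicase activation and the clamp with its loader. The blocks of cyclins, kinases and E2F factors are mixed.

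The D-type cyclins, sensors of growth signals, did not share a direction. Ccnd3, the cyclin D that T cells depend on for expansion in the thymus, had log2 levels of 9.66, 9.58 and 9.62 with icilin and 9.84, 9.72 and 9.79 with vehicle. All icilin arrays lay below all vehicle arrays, and the difference of -0.16 ± 0.07 (SE) did not pass (limma adjusted p = 0.270). Ccnd2, a cyclin D that lymphocytes induce on stimulation, stood at 11.08, 11.03 and 11.03 with icilin and at 11.01, 10.96 and 10.97 with vehicle. The groups again did not overlap, here with icilin above, but the difference was 0.07 ± 0.06 (limma adjusted p = 0.646). Ccnd1, the D-type cyclin of many epithelial and fibroblast cells, was the one gene of the list dimmer than the median gene, with means of 4.46 ± 0.05 with icilin and 4.39 ± 0.16 with vehicle (SD, n = 3 each). The partner kinase genes Cdk4 and Cdk6 differed by 0.03 ± 0.06 and 0.07 ± 0.09. Whether Ccnd2 and Ccnd3 differ from each other in response was not tested.

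Cyclin E and its kinase, which push cells past the G1 checkpoint, did not differ beyond the spread of the arrays. Ccne1 averaged 0.03 ± 0.06 (SE) above vehicle, with a 95% interval of -0.12 to 0.18. Cdk2 stood at 9.56, 9.55 and 9.61 with icilin and 9.50, 9.72 and 9.65 with vehicle, so that the icilin arrays lay within the range of the vehicle arrays (-0.05 ± 0.08, limma adjusted p = 0.790).

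Among pocket proteins and E2F factors, Rbl1 rose and the other 6 did not pass. Rbl1 encodes a relative of the retinoblastoma protein that represses E2F targets and is itself an E2F target, and its promoter is the one above with the motif on the gene's own strand. Its log2 levels were 9.42, 9.49 and 9.45 with icilin and 9.16, 9.17 and 9.23 with vehicle. The lowest icilin array was well above the highest vehicle array, and the change was 0.27 ± 0.06 (SE), or 1.21-fold (limma adjusted p = 0.0731). The call of Rbl1 ended without any 1 of the 6 arrays (0.25 to 0.29, adjusted p 0.134 to 0.216). Rb1, the founding member of the family, differed by -0.05 ± 0.07 (9.69 ± 0.05 with icilin, 9.73 ± 0.07 with vehicle, SD, n = 3 each).

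The activating factors E2f2 and E2f3 lay higher in every icilin array than in any vehicle array. E2f3 had 8.11, 8.07 and 8.09 with icilin and 7.77, 8.00 and 7.94 with vehicle, a difference of 0.19 ± 0.08 (limma adjusted p = 0.282). Vehicle replicate 1 was the lowest array, and without it the difference was 0.12. E2f2 differed by 0.13 ± 0.07 (adjusted p = 0.379). E2f1, the third activator, differed by 0.03 ± 0.10, with both groups spread over the same range. The repressors E2f7 and E2f8, which switch E2F targets off late in S phase, differed by -0.07 ± 0.08 and -0.03 ± 0.06.

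Origin licensing had the highest median difference of the roles in the list, 0.20, and 1 of its 6 measured genes passed. All 6 were above 0, where 53.0% of all genes and 55.4% of the brighter ones were. In 5 of the 6 the icilin arrays lay above all vehicle arrays, against 13.6% and 21.6%. Cdc6, the loader that with CDT1 puts MCM rings on origins, had 9.28, 9.15 and 9.26 with icilin and 9.03, 8.79 and 8.86 with vehicle. It rose by 0.34 ± 0.08 (SE), or 1.26-fold (limma adjusted p = 0.0956), with a 95% interval of 0.14 to 0.53. The call of Cdc6 ended without any 1 of the arrays other than vehicle replicate 1 (0.28 to 0.38, adjusted p 0.160 to 0.247) and with quantile normalization (0.31, adjusted p = 0.113). Geminin, the inhibitor of CDT1 that blocks a second round of licensing, is encoded by Gmnn. It stood at 7.29, 7.29 and 7.40 with icilin and at 7.12, 7.09 and 7.11 with vehicle (0.22 ± 0.06, limma adjusted p = 0.149). Cdt1, its target, differed by 0.11 ± 0.06 (adjusted p = 0.450).

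No subunit gene of the origin recognition complex passed, and differences between the subunits were not tested. Orc1, the subunit whose protein level varies over the cycle in human cells, had 6.88, 6.89 and 6.90 with icilin and 6.76, 6.66 and 6.72 with vehicle (0.18 ± 0.06, limma adjusted p = 0.204). Orc2, a core subunit, had 8.58, 8.64 and 8.56 with icilin and 8.44, 8.39 and 8.26 with vehicle (0.23 ± 0.07, adjusted p = 0.168). In both genes the icilin arrays lay above all vehicle arrays. Orc6 differed by 0.11 ± 0.07 with overlapping groups. Of the 3 core subunits outside the list, Orc3 (-0.14 ± 0.06) and Orc5 (-0.24 ± 0.09, limma adjusted p = 0.237) lay lower in every icilin array than in any vehicle array, and Orc4 differed by 0.05 ± 0.07.

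**Figure D3:**
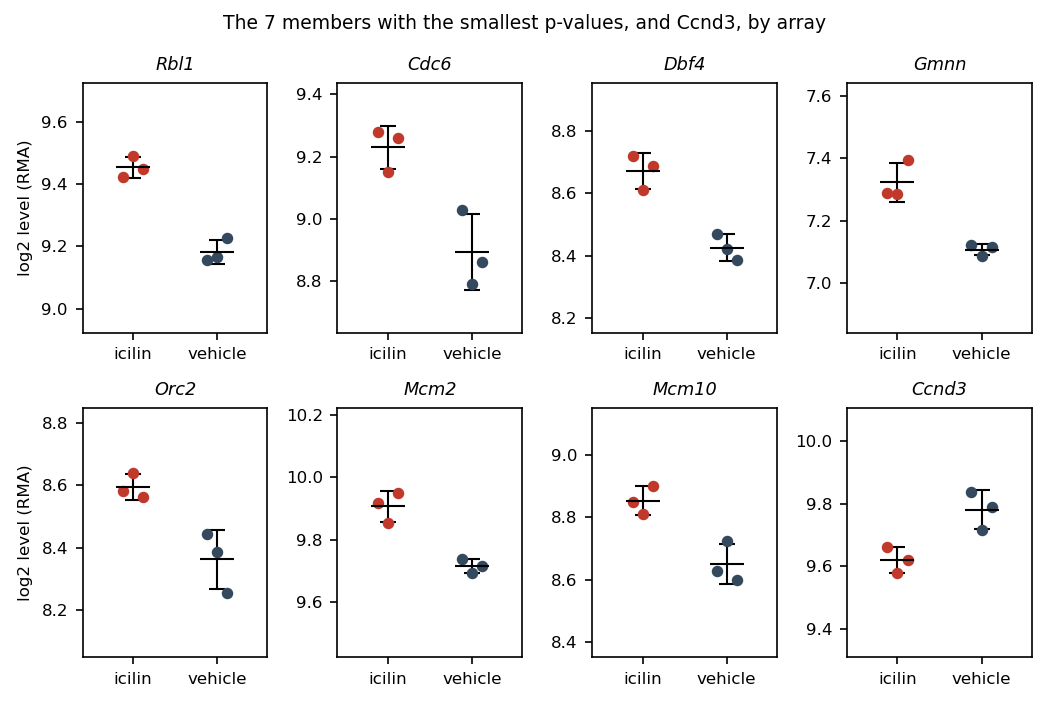
Log2 level of 8 genes in each array (points), with group mean and SD (bars), icilin left and vehicle right in each panel. These are the 7 genes of the list with the smallest p-values, and Ccnd3. The groups do not overlap in any panel, and the icilin arrays are the higher ones except for Ccnd3.

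The 6 subunits of the MCM helicase, the ring that unwinds DNA at the fork, differed by 0.03 to 0.19, all above 0, with a median of 0.08. In Mcm2, Mcm4, Mcm5 and Mcm6 all icilin arrays lay above all vehicle arrays, where 13.6% of all genes and 21.6% of the brighter ones did. In Mcm3 and Mcm7 the groups overlapped. Mcm2 had the smallest p of them, with 9.92, 9.85 and 9.95 with icilin and 9.74, 9.69 and 9.71 with vehicle (0.19 ± 0.06, limma adjusted p = 0.178). Mcm5 stood at 10.55, 10.56 and 10.58 with icilin and at 10.47, 10.51 and 10.52 with vehicle, a difference of 0.07 ± 0.06 (adjusted p = 0.630).

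Helicase activation genes were all above 0 as well, 8 of 8 with a median of 0.13, and none passed. Of all genes 53.0% were above 0, and of the brighter ones 55.4%. Dbf4, the regulatory subunit that switches on the CDC7 kinase, came nearest. Its levels were 8.72, 8.61 and 8.69 with icilin and 8.47, 8.42 and 8.39 with vehicle, with no overlap (0.25 ± 0.06, limma adjusted p = 0.110). The kinase gene Cdc7 itself differed by 0.08 ± 0.07. Mcm10, a scaffold needed to start unwinding, had 8.85, 8.81 and 8.90 with icilin and 8.63, 8.72 and 8.60 with vehicle (0.20 ± 0.07, limma adjusted p = 0.185). Cdc45, the helicase cofactor, differed by 0.06 ± 0.06 and the GINS genes Gins1, Gins2, Gins3 and Gins4 by 0.18, 0.13, 0.13 and 0.07. The groups of Gins1 did not overlap, and its difference was 0.12 without vehicle replicate 3, while the groups of the other 3 overlapped.

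None of the 5 polymerase and primase genes passed, and their differences ran from -0.03 to 0.17. Pola1, the catalytic subunit of the primer-making polymerase alpha, had 8.77, 8.77 and 8.82 with icilin and 8.56, 8.60 and 8.69 with vehicle (0.17 ± 0.06, limma adjusted p = 0.239). Prim1, the primase subunit of the same complex, had 9.33, 9.40 and 9.31 with icilin and 9.28, 9.20 and 9.04 with vehicle (0.17 ± 0.08, adjusted p = 0.336), and without vehicle replicate 3 its difference was 0.11. Both had icilin arrays above all vehicle arrays. Pola2, the accessory subunit, differed by -0.03 ± 0.06, and outside the list the primase partner Prim2 by -0.10 ± 0.06. The catalytic subunits of the polymerases that copy the lagging and leading strands, Pold1 and Pole, differed by 0.00 ± 0.09 and 0.05 ± 0.06.

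The clamp and lagging strand genes gave 6 of 6 differences above 0, from 0.05 to 0.18, and none passed. Here too the shares above 0 were 53.0% of all genes and 55.4% of the brighter ones. Pcna, the sliding clamp, stood at 11.33, 11.36 and 11.29 with icilin and at 11.25, 11.26 and 11.22 with vehicle (0.08 ± 0.06, limma adjusted p = 0.560). The groups did not overlap, but the interval of the change ran from -0.06 to 0.22. Fen1, the flap nuclease of Okazaki fragments, had 7.96, 7.85 and 7.82 with icilin and 7.78, 7.74 and 7.59 with vehicle (0.18 ± 0.08, adjusted p = 0.315). A second, dimmer Fen1 probe set differed by -0.06 ± 0.14. The ligase gene Lig1 differed by 0.09 ± 0.06, and the clamp loader genes Rfc2, Rfc3 and Rfc5 by 0.05, 0.11 and 0.08.

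Behind the fork, Slbp, which binds histone mRNA, had the largest difference. It had 9.42, 9.41 and 9.34 with icilin and 9.37, 9.12 and 9.04 with vehicle, so vehicle replicate 1 lay inside the icilin range (0.21 ± 0.10, limma adjusted p = 0.314). The histone chaperone genes Chaf1a and Chaf1b, 2 subunits of chromatin assembly factor 1, lay on opposite sides of 0, at -0.04 ± 0.06 and 0.09 ± 0.06. Uhrf1 and Dnmt1, which copy DNA methylation onto the new strand, differed by 0.08 ± 0.06 and 0.02 ± 0.07.

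The inhibitors of the cyclin-dependent kinases held some larger differences, with 4 of 7 genes below 0 and 3 above. Cdkn1a, which binds both CDK2 complexes and PCNA and is a target of p53, had 10.19, 10.21 and 10.31 with icilin and 11.18, 10.99 and 11.05 with vehicle. It fell by 0.84 ± 0.08 (SE), to 0.56 of the vehicle level (limma adjusted p = 0.00277). Cdkn1a was the one CDK inhibitor of 7 past the study's limits, where 1.03% of all genes were lower. Cdkn1b, the inhibitor that holds resting T cells in G1, had 7.32, 7.31 and 7.44 with icilin and 7.78, 7.79 and 7.73 with vehicle. It fell by 0.41 ± 0.07 (adjusted p = 0.0237), short of 1.5-fold. At an adjusted p under 0.1 without the fold limit, 3.00% of all genes were lower. Cdkn1c (-0.41 ± 0.13, adjusted p = 0.168) and the INK4 gene Cdkn2d (-0.36 ± 0.11, adjusted p = 0.146) lay lower in all icilin arrays and did not pass. Of all genes 10.5% lay lower without overlap, and of the brighter ones 15.1%. Cdkn2c, another INK4 inhibitor of CDK4 and CDK6, went the other way, with 6.68, 6.66 and 6.76 with icilin and 6.52, 6.49 and 6.43 with vehicle (0.22 ± 0.07, adjusted p = 0.146). Cdkn2a and Cdkn2b differed by 0.04 ± 0.11 and 0.09 ± 0.12, with overlapping groups.

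**Figure D4:**
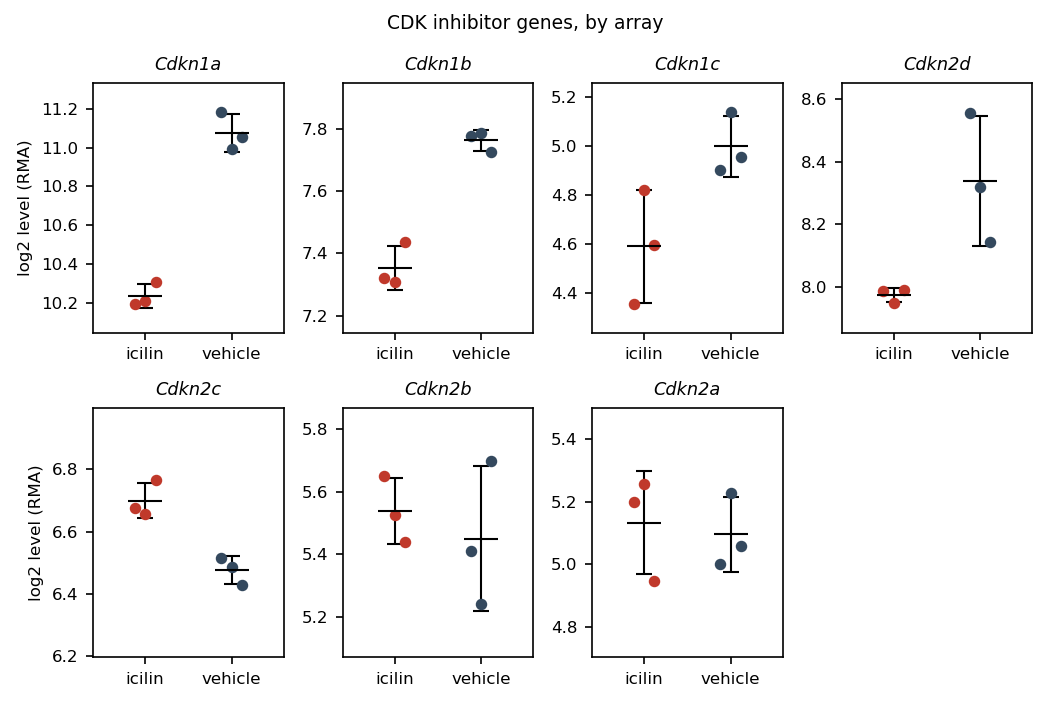
Log2 level of 7 CDK inhibitor genes in each array (points), with group mean and SD (bars), icilin left and vehicle right. Cdkn1a, Cdkn1b, Cdkn1c and Cdkn2d are lower in all icilin arrays, Cdkn2c is higher in all, and Cdkn2a and Cdkn2b overlap. Only Cdkn1a and Cdkn1b passed the test.

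Replication genes outside the list also lay mostly above 0. Of 36 measured, 30 were above 0, where 53.0% of all genes and 55.4% of the brighter ones were. The median was 0.11. Limma had 1 rise and 0 falls at an adjusted p under 0.1, where 2.27% and 3.00% of all genes were called. Limma gave an unadjusted p under 0.05 to 12 above and 1 below, against 9.09% and 8.05% of all genes and 13.7% and 11.2% of the brighter ones. SAM called 0 of the 36 at the study's limits and 0 without the fold limit. The 1 rise in limma was in Recql4, a helicase needed to start replication. Recql4 had 6.74, 6.89 and 6.94 with icilin and 6.47, 6.51 and 6.50 with vehicle (0.36 ± 0.07, limma adjusted p = 0.0480). Its call ended without any 1 of the arrays other than icilin replicate 1 (0.32 to 0.37, adjusted p 0.122 to 0.159). Of 18 other genes of the G1 to S step, 2 rose: Fbxo5, the inhibitor of the anaphase-promoting complex (0.35 ± 0.07, adjusted p = 0.0580), and Ccnh, the cyclin of the CDK-activating kinase (0.33 ± 0.07, adjusted p = 0.0557). Both calls ended without most single arrays, 5 of the 6 for each, the exceptions being vehicle replicate 1 for Fbxo5 (0.30 to 0.38 without another array, adjusted p 0.106 to 0.186) and vehicle replicate 2 for Ccnh (0.30 to 0.36, adjusted p 0.123 to 0.177). SAM without the fold limit called 0 of the 18. The phosphatase gene Cdc25a, which activates CDK2, differed by 0.31 ± 0.08 (limma adjusted p = 0.107).

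Among 9 measured nucleotide supply genes, limma had 1 rise, against 2.27% of all genes, and SAM called 1 without the fold limit. The rise in limma was in Samhd1, which breaks deoxynucleotides down. It had 10.68, 10.72 and 10.67 with icilin and 10.39, 10.26 and 10.22 with vehicle (0.40 ± 0.07, limma adjusted p = 0.0298), and passed without icilin replicate 3 or vehicle replicate 1 but not without any other array (0.36 to 0.40, adjusted p 0.102 to 0.114). Genes of mitosis, the stage after S phase, stood near the share of all genes above 0. Of 19 measured, 11 (57.9%) were above 0, against 53.0% of all genes and 55.4% of the brighter ones, and the median was 0.01. Ccnb2, a mitotic cyclin, fell by 0.28 ± 0.06 (limma adjusted p = 0.0680), where 3.00% of all genes were lower. The call of Ccnb2 ended without any 1 of the arrays (-0.31 to -0.26, adjusted p 0.133 to 0.202). SAM without the fold limit called 1 of the 19. Mki67, the proliferation marker, differed by -0.01 ± 0.08, and 8 reference genes had a median of 0.00. The difference between the replication and mitosis lists was not tested.

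**Figure D5:**
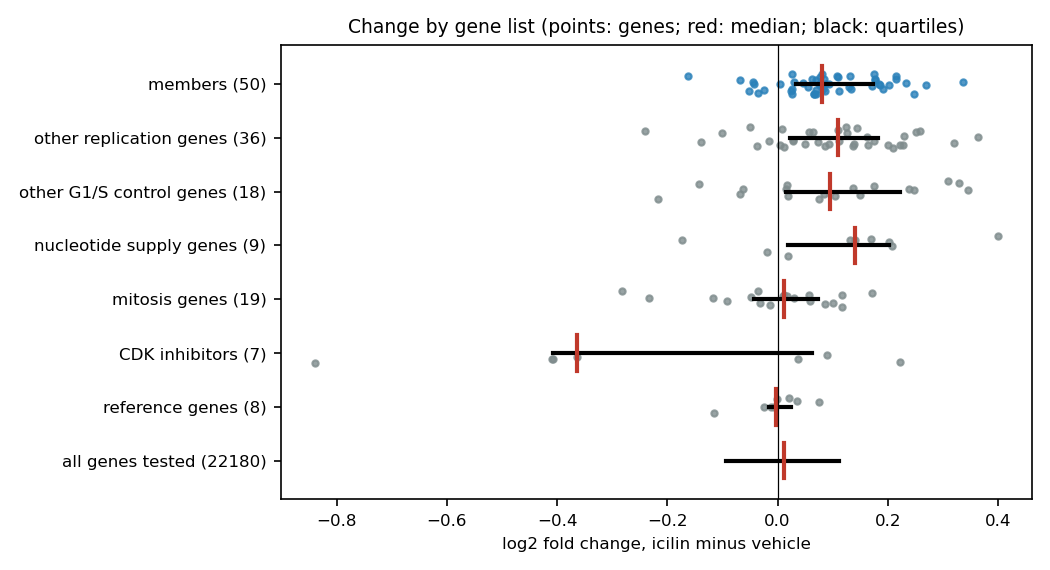
Log2 fold changes, icilin minus vehicle, by gene list, with each gene as a point (no points for all genes tested), the median in red and the quartiles as a black bar. The lists of replication, G1 to S control and nucleotide supply have medians of 0.08 to 0.14, mitosis and reference genes lie near 0, and CDK inhibitors have a median of -0.36.

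The arrays carried the markers of their labelled cell type. Of 6 measured CD4 T cell markers all were brighter than the median gene, with list means of 10.55 to 10.62 in icilin and 10.47 to 10.56 in vehicle arrays. Cd28 was the one that rose (0.34 ± 0.07, limma adjusted p = 0.0529), a call that ended without any 1 array but vehicle replicate 1 (0.31 to 0.36, adjusted p 0.126 to 0.172). SAM without the fold limit called 0 of the 6. On 5 lists of other cell types, 14 of 23 measured markers were dimmer than the median gene. By definition 11090 of the 22180 genes are brighter than it, so that count alone says little about other cells. At an adjusted p under 0.1, 2 of the 23 rose and 1 fell, against 2.27% and 3.00% of all genes. List means for B cell markers were 4.93 to 5.01 with icilin and 4.67 to 4.75 with vehicle, and Ms4a1 made most of that gap (1.01 ± 0.10, adjusted p = 0.00339). Myeloid markers averaged 3.05 to 3.19 with icilin and 3.00 to 3.10 with vehicle, and stromal markers 4.39 to 4.48 and 4.34 to 4.43. Markers of NK and CD8 T cells averaged 4.44 to 4.57 with icilin and 4.55 to 4.66 with vehicle, with Eomes higher (0.67 ± 0.07) and Crtam lower (-0.92 ± 0.16). Cd8b1 was the brightest of them, with means of 6.86 with icilin and 6.47 with vehicle. It was higher in all icilin arrays (0.39 ± 0.12, limma adjusted p = 0.17), and Klrb1c was lower in all (-0.52 ± 0.15, adjusted p = 0.13). Cd8a and Ncr1 differed by 0.01 ± 0.16 and -0.08 ± 0.08, with overlapping groups. Crtam passed with either icilin replicate 3 or vehicle replicate 1 left out, but not with any of the other 4 arrays left out (-0.93 to -0.82, limma adjusted p 0.107 to 0.116). The 1 measured red cell and platelet marker, Pf4, did not pass (-0.49 ± 0.14). The part of other cells in the small differences above was not tested.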

How the data were processed

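The deposited values are on a log2 scale and were made by the authors with RMA from the probe intensities of 6 arrays, per the series design text. RMA corrects background, normalizes between arrays and sums up each probe set. A shift shared by most genes is removed by it, and dim genes show smaller changes than they have. No step was redone. Of 41345 probe sets, 23521 have 1 gene symbol in the array annotation, 1814 several and 16010 none, and the last kinds were left out. For 1082 genes with several probe sets the one with the highest mean was kept. Genome build and annotation version are not given in the sources used here.

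All 22180 genes were fitted in R 4.3.3 using limma 3.58.1 (eBayes without trend; residual degrees of freedom 4, prior 3.07). Tests were two-sided, with Benjamini-Hochberg adjustment across the 22180 genes. Errors are SE from limma beside differences and SD of 3 arrays beside means. Replication genes were named by rule: those with an adjusted p under 0.1, and in each role the smallest p, the brightest and the largest difference. All CDK inhibitors were named, and from other lists up to 4 genes with an adjusted p under 0.1. Genes named beyond the rule were chosen after their values were seen. Members and lists were chosen with earlier results of these data known. SAM, the study's test, was written anew (20 permutations). The fit was checked on simulated data. Of 50 genes given a log2 change of 0.3, 6 reached an adjusted p under 0.1, and of 50 given 0.6, 46 did. Of the unchanged genes 16 did. Fewer genes were changed in the simulation than passed in the data, which makes its adjustment stricter, so these rates need not hold for the data. A gene that did not pass may thus still have a small change. Nothing says that arrays are separate cultures beyond coming from 3 mice. Promoters are from RefSeq (GRCm38.p6). Python 3.11.15, pandas 2.3.3 and matplotlib 3.10.9 made tables and figures. With 3 against 3 arrays their number limits precision: the median SE over all genes was 0.09.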

Additional observations from a re-analysis of the deposited data

How the results depend on the processing

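The count of 0 replication genes past the study's limits stayed 0 under every alternative run: a replicate block, robust variances with an intensity trend, centring on array medians, quantile normalization, leaving out dim genes, averaging probe sets, leaving out each array, SAM, and an adjusted p under 0.05 with at least 1.2-fold. The count of 1 CDK inhibitor past them, Cdkn1a, also stayed 1 under each of these that was run for it. Counts without the fold limit did move. The 2 rises of replication genes became 9 with trend and robust variances and 9 with dim genes left out. Of the genes tested 6.49% and 12.8% were higher, and the first of these shares includes the dim genes. They became 1 with quantile normalization, 0 with the replicate block and 0 to 1 with single arrays left out. The 0 falls became 1, Ccnd3, with trend and robust variances and 1 with dim genes left out, where 5.32% and 10.4% of the genes tested were lower. The 1 rise among the 36 other replication genes became 12 with trend and robust variances and 10 with dim genes left out. Of the genes tested 6.49% and 12.8% were higher in these fits. That rise became 0 with the replicate block and 0 to 1 with single arrays left out. The 0 falls there became 2 with trend and robust variances and 1 with dim genes left out, against 5.32% and 10.4% of the genes tested. With single arrays left out they were 0 to 1. Leaving out an array lowers the degrees of freedom, and leaving out dim genes lowers the number of genes tested. The median of 0.08 over the replication genes was 0.11 with centring on array medians and 0.0755 to 0.0962 with single arrays left out.

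Equal-numbered arrays were not taken as pairs. Their deviations from the group means correlated at -0.005, -0.014 and -0.022 over all genes and at 0.078, -0.022 and 0.14 over the replication genes, so that not every pair was above 0.1. With the replicate block, Cdkn1b (adjusted p = 0.110), Rbl1 (0.194), Cdc6 (0.140), Recql4 (0.124), Fbxo5 (0.161), Ccnh (0.150), Samhd1 (0.110), Cd28 (0.144) and Ccnb2 (0.184) no longer passed, with the same fold changes.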

Other observations

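Fen1, Rb1 and Pole of the list and several genes near it had a second probe set with a single symbol. For Rrm2, the small subunit of ribonucleotide reductase, the brighter probe set differed by 0.20 ± 0.07 (icilin minus vehicle, log2, SE) and a dim one by 0.48 ± 0.10. For Rb1 the brighter set differed by -0.05 ± 0.07 and the dim one by 0.13 ± 0.14, and for Pole the values were 0.05 ± 0.06 and 0.02 ± 0.12. No cause of these differences between probe sets was tested.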
